A study of Mus musculus with 9 samples.

Results

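mCherry is a red fluorescent protein that was derived from a protein of Discosoma, a relative of corals, and has no counterpart in the mouse genome. Here it was the transgene carried by the vector AAVrh.10mCherry, and it was followed through the feature named mCherry in the count tables, which is 1 of 26388 features named in at least 1 of them. A table that did not list the feature was read as holding 0 counts of it. Adeno-associated virus serotype rh.10 is a small DNA virus whose capsid is used to carry genes into tissues, and after injection into a vein the liver takes up much of it. The delivered genome stays mostly outside the chromosomes of the hepatocytes, where its promoter drives transcription. A transcript from it is therefore a readout of delivery and expression together.

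Single liver cells of 9 mice had been captured by Drop-seq, in which each cell shares a droplet with a bead that carries a barcode, and transcripts are counted as unique molecular identifiers (UMIs) per barcode. All mice were male C57BL/6 aged 8 weeks, with no genetic change given. By vein, 3 mice received PBS (mice 1, 4 and 7), 3 received AAVrh.10Null (mice 2, 5 and 8) and 3 received AAVrh.10mCherry (mice 3, 6 and 9). The sources used here do not give the promoter of the vector, the dose, how long after injection the livers were taken, or what AAVrh.10Null carries in place of mCherry.

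The libraries held 4234216 to 11220152 UMIs, apart from mouse 7 with 1083091. A barcode was retained if it had 200 or more genes and no more than 50% of its UMIs from mitochondrial transcripts, which kept 549 of 3600 barcodes of mouse 7 and 3997 to 7195 of every other mouse. Mice 2, 7 and 8 stood apart by Malat1, a nuclear long RNA, at 15020 to 23010 CPM (UMIs per 1000000 UMIs of the library) against 2769 to 10040 in the other 6 mice. They also had few barcodes that ended in an undetermined base (7 to 174 against 1056 to 1735). Any pair of libraries shared 1 to 10 barcodes. The 3 AAVrh.10mCherry libraries were of usual depth in all, at 4810051 to 8585136 retained UMIs. Per barcode mouse 6 was shallower, with a median of 757 UMIs against 1372 in mouse 3 and 1219 in mouse 9. Its mitochondrial share of UMIs was 15.7%, against 6.3% and 10.2%. Alb, the gene of serum albumin and the defining product of hepatocytes, was at 33730 to 47240 CPM in all 9 livers.

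mCherry was high in the livers that its label names, and its level differed widely between them. It held 47325 UMIs in mouse 3, which is 7979 CPM (95% Poisson interval 7907 to 8051). In mouse 6 it held 30610 UMIs or 6364 CPM (6293 to 6435), and in mouse 9 15431 UMIs or 1797 CPM (1769 to 1826). The transgene thus ranked 15th, 13th and 65th among the features of these mice by UMIs. Between the highest and the lowest of the 3 livers the level differed 4.44-fold (coefficient of variation 59.6%, n = 3), while Alb differed 1.16-fold. Mouse 9 was the low one, and the intervals of the 3 mice, which cover counting error only, did not overlap. Set against the hepatocyte product in the same barcodes, there were 22.8 mCherry UMIs per 100 Alb UMIs in mouse 3, 16.1 in mouse 6 and 4.42 in mouse 9. UMIs count 3′ ends and are not scaled by transcript length.

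**Figure D1:**
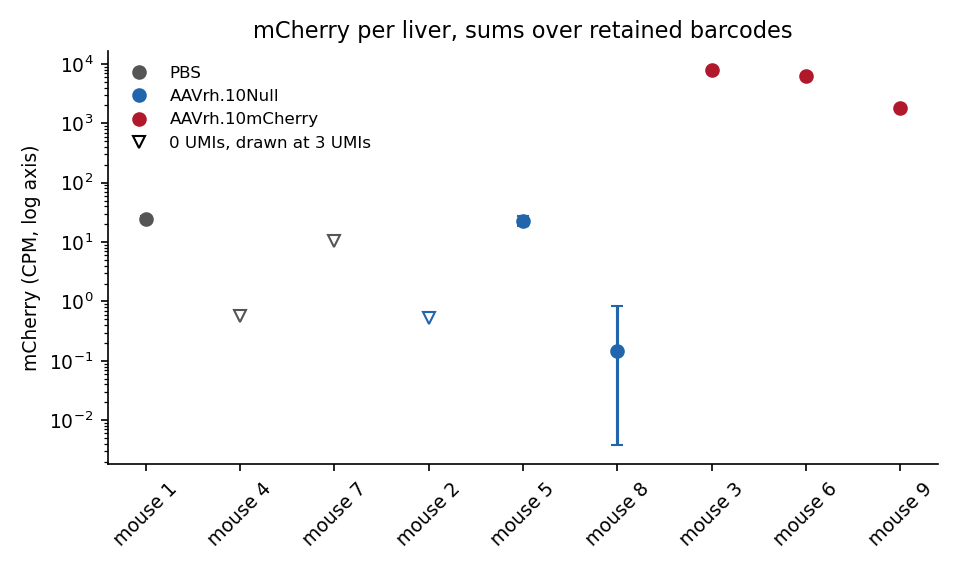
mCherry in CPM on a log axis for each liver, with 95% Poisson intervals, over retained barcodes, coloured by group. Open triangles mark livers with 0 UMIs, drawn at the level of 3 UMIs. The AAVrh.10mCherry livers sit between 1797 and 7979 CPM, and the highest of the other livers is at 24.3.

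The 6 livers without the mCherry vector were not alike. In mouse 1 (PBS) there were 273 mCherry UMIs, at 24.3 CPM (21.5 to 27.4), and in mouse 5 (AAVrh.10Null) 96, at 22.7 CPM (18.4 to 27.7). Mouse 8 (AAVrh.10Null) held 1 UMI, at 0.149 CPM, and mice 2, 4 and 7 held 0. A count of 0 allows up to 3 UMIs, which is 0.529 CPM in mouse 2, 0.563 in mouse 4 and 10.3 in the thinly covered mouse 7. The group label did not separate the livers with a trace from those without, since each of the PBS and AAVrh.10Null groups held both. The lowest AAVrh.10mCherry liver was 73.9-fold the highest of the other 6.

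The traces in mice 1 and 5 were spread thinly over many barcodes. In mouse 1 mCherry was in 238 of 5196 barcodes (4.58%), 225 of them with a single UMI, and in mouse 5 in 92 of 3997 (2.30%), 90 of them with a single UMI. The highest barcode of mouse 1 held 12 mCherry UMIs of 1863, and without it the liver was at 23.3 CPM. The highest barcode of mouse 5 held 3. Barcodes with a UMI of mCherry were about as deep as the rest, with a median of 1968 against 1990 UMIs over all barcodes in mouse 1 and 1033 against 991 in mouse 5. Over 4 equal parts of the barcodes by UMI total, the level in mouse 1 was 29.9, 32.0, 21.3 and 18.8 CPM from the shallowest to the deepest. In mouse 5 it was 13.2, 30.7, 25.5 and 20.7, from 11, 29, 27 and 29 UMIs. The lowest value was in the shallowest part, with an interval of 6.6 to 23.7. That interval overlapped those of the other parts (20.6 to 44.1, 16.8 to 37.1 and 13.9 to 29.7), so the order of the parts in mouse 5 is not resolved.

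Barcode sharing and library indexes were set beside these traces. Of the barcodes with mCherry in mouse 1, 1 was also listed in an AAVrh.10mCherry library, and of those in mouse 5, 0 were. With or without mCherry, mouse 1 (5200 barcodes) shared only 3, 5 and 8 barcodes with mice 3, 6 and 9. Mouse 5 (4000 barcodes) shared 2, 3 and 3. With so few barcodes shared at all, the overlap of those with mCherry says nothing about where these UMIs came from. Per the deposited notes on library indexes, mouse 1 had both of its i7 indexes in common with mouse 6. Mouse 5 had both of its own in common with mouse 3 and 1 of them with mouse 9. Mouse 4 (PBS) had 1 index in common with mouse 9 and held 0 mCherry UMIs. Mice 2, 7 and 8 had none in common with an AAVrh.10mCherry library and held 0, 0 and 1 UMIs. The part of the indexes in these UMIs was not tested, and the sources used here do not say which libraries were sequenced together. As a share of the liver with the same indexes, mouse 1 was at 0.382% of mouse 6 and mouse 5 at 0.284% of mouse 3.

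Tests between groups were limited by 3 mice a group and by this unevenness. By an exact two-sided permutation test of the CPM values, AAVrh.10mCherry (5380 ± 3206, mean ± SD, n = 3) had p = 0.1 against PBS (8.11 ± 14.1, n = 3), which is the smallest p that 3 against 3 allows. The same exact permutation test gave p = 0.1 against AAVrh.10Null (7.61 ± 13.1, n = 3). Against the other 6 mice together the exact permutation test gave p = 0.0238, and 3 of 3 livers lay above all 6. In the edgeR quasi-likelihood fit over 11308 features, mCherry had the largest log2 change of all in each contrast. It was 8.74 (SE 2.44) against PBS, 9.42 (SE 2.47) against AAVrh.10Null and 9.08 (SE 1.79) against the mean of both.

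None of these passed after Benjamini-Hochberg adjustment by edgeR, with adjusted p = 0.740, 0.585 and 0.940. The feature ranked 102nd, 141st and 10th of 11308 by p. By the same rule 0% of the features were called against PBS, 0.0177% (2 features) against AAVrh.10Null and 0% against the mean of both, while 707, 834 and 529 lay under 0.05 by unadjusted p. With DESeq2 2, 3 and 2 features were called, and mCherry was not among them (adjusted p = 0.669, 0.331 and 0.206). With limma-voom mCherry passed in the last contrast alone (adjusted p = 0.0317). The size of the fitted change rested on the livers with a trace: without mouse 1 it was 17.71 against PBS, and without mouse 5 it was 15.59 against AAVrh.10Null, since the livers left in that group then held 0 or 1 UMIs. A fitted change against so few UMIs depends on the prior count of the fit and is no bound. Genes that serve AAV entry and trafficking and genes induced by interferon were read in the same fit. Of 24 measured AAV entry genes, 14 were above 0 against PBS and 8 against AAVrh.10Null, and 0 passed in either (median log2 change 0.08 and −0.10). Of 24 interferon-induced genes 6 and 13 were above 0, and 0 passed (median −0.20 and 0.05, beside 0.02 and 0.00 over all features).

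Within an AAVrh.10mCherry liver, most barcodes held at least 1 UMI of mCherry. Free RNA can place a UMI in the barcode of a cell that makes none. The share of cells that carry the vector is therefore not known from these values. T cell marker-positive barcodes, described further on, held mCherry in 13 of 13, 23 of 26 and 18 of 20. Whether those cells transcribe it was not tested. A UMI of mCherry was in 3995 of 3998 retained barcodes of mouse 3 (99.9%), in 5270 of 5398 of mouse 6 (97.6%) and in 5522 of 6393 of mouse 9 (86.4%). The median barcode held 11 mCherry UMIs in mouse 3, with 5 at the 5th and 20.2 at the 95th percentile. In mouse 6 the median was 5 (1 to 12), and in mouse 9 it was 2 (0 to 6). The highest barcode held 92, 73 and 32 UMIs, in barcodes of 4832, 5380 and 7643 UMIs in all. In each liver the barcodes without mCherry were more than an even share of mCherry over all UMIs would leave by counting alone: 3 against 0.215 in mouse 3, 128 against 54.5 in mouse 6 and 871 against 706 in mouse 9. The tenth of barcodes with the most mCherry held 19.2%, 25.8% and 28.0% of it, and 14.0%, 16.2% and 14.3% of all UMIs.

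To compare spread at a common depth, each barcode was thinned at random to 1000 UMIs, and shallower barcodes were left out (71 in mouse 3, 4334 in mouse 6 and 940 in mouse 9). The mean was then 8.03, 5.86 and 1.81 mCherry UMIs, with mCherry in 99.8%, 95.4% and 80.4% of barcodes. The coefficient of variation beyond counting noise was 0.195 in mouse 3, 0.568 in mouse 6 and 0.358 in mouse 9. Alb, measured likewise, had 0.217, 0.436 and 0.247, and Malat1 had 2.40, 1.53 and 1.65. At this depth, mCherry in mouse 3 varied between barcodes by a little less than Alb, and in mice 6 and 9 by more. Other hepatocyte transcripts lay on both sides of mCherry in mouse 3. Apoa1 (0.158), Ttr (0.161), Serpina1a (0.164) and Fabp1 (0.177) varied less than it. Hamp (0.207), Mup20 (0.209), Cyp2e1 (0.244), Cyp2f2 (0.275) and Saa1 (0.725) varied more. Of 231 to 238 features with a mean of at least 0.5 UMIs, 170 varied more than mCherry in mouse 3, 78 in mouse 6 and 72 in mouse 9. The 1064 barcodes of mouse 6 that reach 1000 UMIs are its deepest, and thinned to 500 UMIs its 5349 barcodes gave 0.364, against 0.277 for Alb. With 500 UMIs the 6393 barcodes of mouse 9 gave 0.262 against 0.2405 for Alb, a smaller difference than at 1000. There 51 of 104 features varied more than mCherry.

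**Figure D2:**
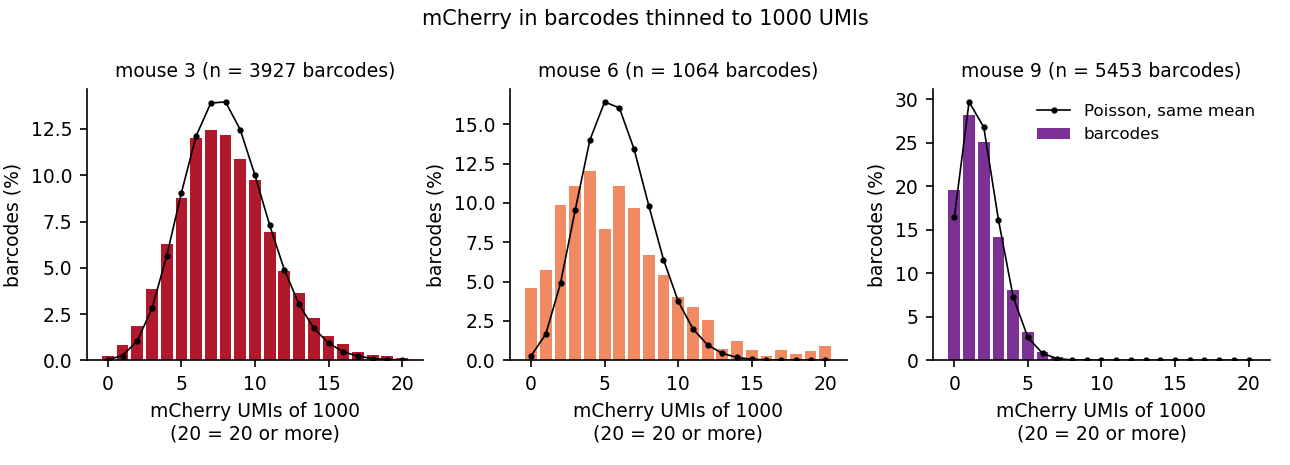
Share of barcodes (%) with each number of mCherry UMIs after thinning every barcode to 1000 UMIs, for the 3 AAVrh.10mCherry livers, with 20 standing for 20 or more. Black points give a Poisson distribution of the same mean. Mouse 3 lies close to the Poisson curve around a mean of 8.03, and mouse 6 is wider than it on both sides.

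mCherry UMIs rose with the depth of a barcode, while the level per UMI moved less and in differing directions between livers. Across barcodes, the Spearman correlation of mCherry UMIs with total UMIs was 0.43, 0.32 and 0.34 in mice 3, 6 and 9, and that of mCherry per 10000 UMIs with the total was −0.06, −0.10 and 0.05. Both use the same UMIs, so they are descriptions. In 4 equal parts of the barcodes by UMI total, the level in mouse 3 was 8238, 8118, 8050 and 7690 CPM from the shallowest to the deepest. In mouse 6 it was 6731, 7150, 6719 and 5614, and in mouse 9 it was 1680, 1768, 1786 and 1882. The deepest part was the lowest in mice 3 and 6 and the highest in mouse 9. In mouse 6 the interval of the deepest part (5508 to 5720) lay well below that of the second part (6982 to 7322). From that second part to the deepest, mCherry per 100 Alb UMIs went from 18.08 to 13.81 in mouse 6. In edgeR with the mouse as a block, barcodes above the median total had a log2 change of −0.08 (SE 0.04, n = 3 mice, adjusted p = 0.514) against those below, where 0.208% of 9113 features were called. Without mouse 9 it was −0.16 and passed (adjusted p = 0.0177).

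The level was also read against other properties of the barcodes. In the barcodes with the least Malat1 (the lowest of 4 equal parts by its share of UMIs) mCherry was at 8442, 7815 and 1940 CPM in mice 3, 6 and 9, and in those with the most it was at 7016, 4387 and 1704. The level was lower in the Malat1-rich part in 3 of 3 livers, most of all in mouse 6. Alb was lower there as well, at 37030, 39120 and 42660 CPM in the part with the least Malat1 and 30610, 36000 and 36630 in that with the most. mCherry per 100 Alb UMIs was thus 22.8 and 22.9 in mouse 3 and 4.55 and 4.65 in mouse 9, but 19.98 and 12.19 in mouse 6. By mitochondrial share of UMIs, the lowest part had 8146, 6973 and 2006 CPM and the highest 7426, 4839 and 1593. Mitochondrial UMIs count in the total, so a larger share of them lowers the CPM of other features in part by construction. In mouse 6 the median share was 6.5% in the lowest part and 25.6% in the highest. Here Alb went the other way, at 30100, 34940 and 35810 CPM in the lowest part and 39520, 42540 and 44460 in the highest. In barcodes sorted by Alb itself, mCherry was at 7903, 5848 and 1916 CPM in the part with the least Alb and at 7738, 5895 and 1716 in the part with the most.

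**Figure D3:**
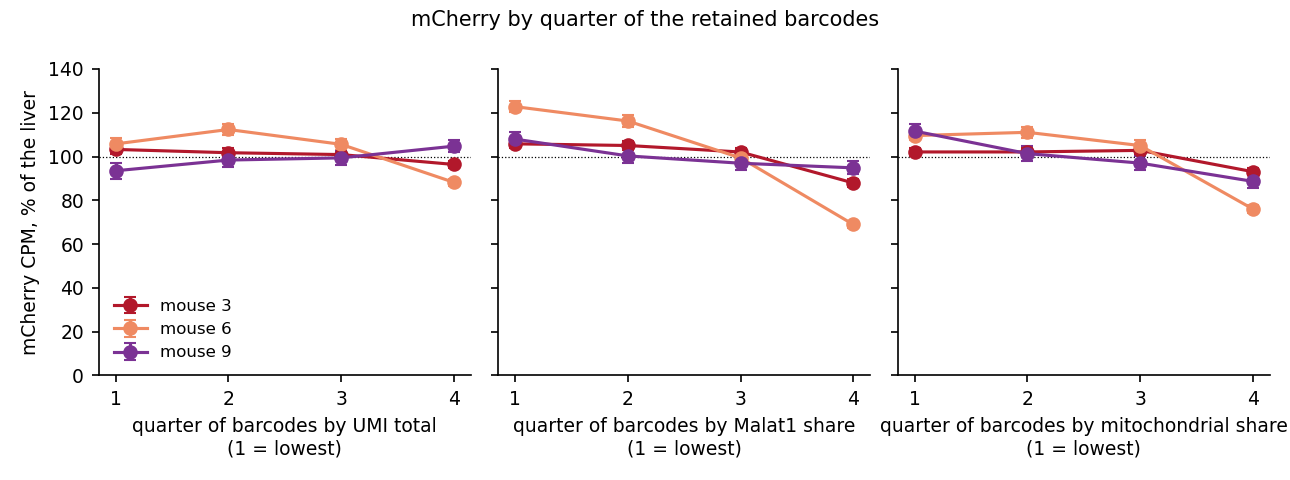
mCherry CPM, as a percentage of the level of the whole liver, in 4 equal parts of the retained barcodes ordered by UMI total, by the share of Malat1 and by the share of mitochondrial UMIs, with 95% Poisson intervals, for mice 3, 6 and 9. The steepest fall is in mouse 6 from the part with the least Malat1 (7815 CPM) to that with the most (4387).

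The level in cells other than hepatocytes was read from barcodes with marker genes. A barcode was positive for endothelial, macrophage or T cell markers when it held at least 3 UMIs over at least 2 genes of that list and was not positive for another of the 3 lists. It was negative when it held none of them, and negative barcodes held Alb at 35440, 40780 and 41120 CPM in mice 3, 6 and 9. Defining genes separated the classes by construction. In mice 3, 6 and 9, Kdr, the endothelial VEGF receptor, was at 827, 1858 and 878 CPM in endothelial-positive barcodes. Clec4f, a lectin of Kupffer cells, was at 3542, 1637 and 1821 CPM in macrophage-positive barcodes, and Trac, the T cell receptor alpha constant gene, at 319, 804 and 794 in T-positive ones. Each was at 0 in the negative barcodes, as the rule requires. The markers were nonetheless a small part of each positive barcode (0.665% of its UMIs in endothelial, 1.37% in macrophage and 0.435% in T-positive barcodes of mouse 3), and Alb was found in 100% of them in all 3 livers.

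Endothelial-positive barcodes held mCherry at 4951 CPM in mouse 3 (46 barcodes, interval 4464 to 5477), 3118 in mouse 6 (154 barcodes, 2830 to 3428) and 1288 in mouse 9 (110 barcodes, 1118 to 1478). The negative barcodes of the same mice held 8058, 6563 and 1811. That is 61.5%, 47.5% and 71.1% of the negative level. Alb in the same barcodes was at 62.6%, 48.3% and 62.0% of its negative level.

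Macrophage-positive barcodes were few, at 24, 13 and 24. They held mCherry at 3688, 3684 and 1062 CPM in mice 3, 6 and 9, or 45.8%, 56.1% and 58.6% of the negative level. Alb in them was at 47.7%, 47.5% and 62.1%.

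T-positive barcodes numbered 13, 26 and 20. They held mCherry at 4945, 2521 and 1352 CPM, or 61.4%, 38.4% and 74.7% of the negative level, with Alb at 59.9%, 36.7% and 68.3%. A UMI of mCherry was in 13 of 13, 23 of 26 and 18 of 20 of these barcodes, against 99.9%, 98.3% and 86.7% of the negative ones. The T-positive barcodes were deeper, with medians of 2002, 977 and 1530 UMIs against 1361, 749 and 1210. Thinned to 500 UMIs they held mCherry in 92.3%, 61.5% and 45%, against 97.1%, 94.6% and 57.9% of the negative barcodes.

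In all 9 pairs of class and liver, mCherry was below the negative level by about as much as Alb. The difference between them, as the log2 ratio of mCherry to its negative level minus that of Alb, was 0.05 ± 0.13 in endothelial-positive barcodes (mean ± SD, n = 3, from −0.03 to 0.20). It was 0.03 ± 0.18 in macrophage-positive (−0.08 to 0.24) and 0.08 ± 0.05 in T-positive barcodes (0.04 to 0.13). An exact two-sided sign-flip permutation test of the 3 mice gave p = 1, 1 and 0.25, and 0.25 is the smallest p that 3 mice allow. With the Alb UMIs of each sum as its library size, edgeR gave mCherry a log2 change of 0.05 (SE 0.10), 0.03 (SE 0.13) and 0.07 (SE 0.18), with adjusted p = 0.709, 0.997 and 0.813. These errors bound what could have been seen; they do not show that the ratios are equal. Alb in the same kinds of barcodes of the 6 other livers was at 44.4% to 80.4% of the negative level in endothelial-positive barcodes. It was at 29.0% to 70.4% in macrophage-positive and 40.7% to 72.5% in T-positive barcodes. The 29.0% rests on 2 barcodes of mouse 7, and the next lowest was 38.9% in mouse 8 (27 barcodes). T-positive barcodes numbered 8 in mouse 5 and 4 in mouse 7.

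**Figure D4:**
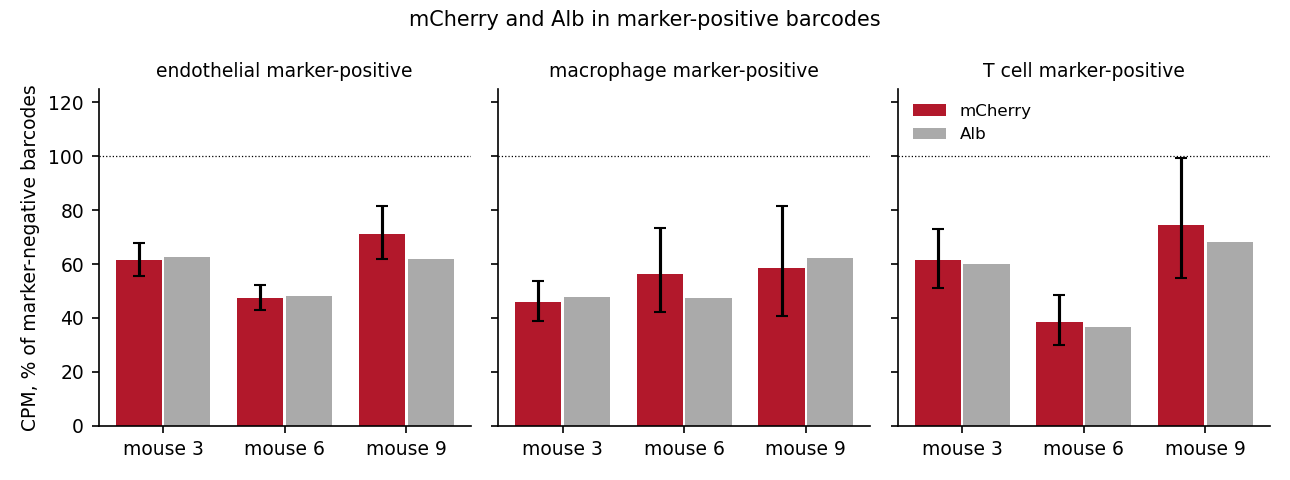
mCherry (red, with 95% Poisson intervals) and Alb (grey) in endothelial, macrophage and T cell marker-positive barcodes, as a percentage of the CPM in marker-negative barcodes of the same liver. In each of the 9 pairs of bars both are below 100%, and mCherry lies between 38.4% and 74.7%.

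Against the negative barcodes as such, the fall of mCherry passed in each class. In edgeR with the mouse as a block and TMM scaling, the log2 change was −1.32 (SE 0.30, adjusted p = 1.42e-04) in endothelial-positive barcodes, beside −1.36 for Alb, where 24.6% of 9346 features were called. In macrophage-positive barcodes it was −1.84 (SE 0.22, adjusted p = 1.06e-14), beside −1.85 for Alb, with 14.6% of 8311 called. In T-positive barcodes it was −1.86 (SE 0.28, adjusted p = 1.05e-09), beside −1.91 for Alb, with 17.5% of 8360 called. The scaling moved the median of all features to −0.12, −0.69 and −0.69, and with library size alone, where the medians were 0.43, 0.21 and 0.35, mCherry was at −0.74, −0.91 and −0.81 and still passed. Endothelial-positive barcodes lost the call without mouse 3 (−1.33, adjusted p = 0.189) and without the mouse block (adjusted p = 0.102), and T-positive barcodes lost it by limma-voom (−1.90, adjusted p = 0.0526). Of the 26 genes for proteins that hepatocytes secrete, 26 fell in each of the 3 classes (median −1.26, −1.62 and −1.81), and so did 20 of 20 intracellular hepatocyte genes (median −1.21, −1.67 and −1.85).

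Macrophage and endothelial-positive barcodes with a greater marker content held less of both. Where marker UMIs made up at least 1% of a barcode, macrophage-positive barcodes of mouse 3 (15 barcodes) held mCherry at 29.5% and Alb at 31.0% of the negative level, and those of mouse 9 (10 barcodes) 26.6% and 34.6%. In mouse 6 there were 3 such barcodes with 2 mCherry UMIs. Endothelial-positive barcodes under this rule (12, 108 and 30) held mCherry at 59.6%, 33.8% and 63.9%, and Alb at 53.4%, 34.0% and 51.5%. In edgeR the change of mCherry under this rule was −1.96 in endothelial-positive and −3.05 in macrophage-positive barcodes, the latter from mice 3 and 9 alone, since mouse 6 fell short of 10 barcodes. With a looser rule of 2 marker UMIs over 2 genes these changes were −1.05 and −1.22, and each passed under both rules. T-positive barcodes under the 1% rule were 4 in mouse 6 and 0 in mice 3 and 9. The 4 held 9 mCherry UMIs, at 43.2% of the negative level against 38.4% under the main rule, with Alb at 28.6%. Levels of mCherry above 0 in these classes were therefore measured in barcodes that also held hepatocyte transcripts. Free RNA, barcodes of more than 1 cell and transcription in the cells themselves cannot be told apart here.

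Zonation was read within the negative barcodes with at least 500 UMIs. Hepatocytes near the central vein and near the portal vein run different programmes, and a barcode was placed by its pericentral against its periportal marker UMIs into 1 of 3 equal parts per mouse. mCherry was at 8326 CPM in the pericentral and 7763 in the periportal part of mouse 3 (1105 barcodes each). In mouse 6 it was at 7312 and 5870 (1566 each), and in mouse 9 at 1970 and 1669 (1823 each). The pericentral part was higher in 3 of 3 livers, by 1.07-, 1.25- and 1.18-fold, and the middle part lay between in each (8104, 6756 and 1805 CPM). Cyp2e1, a pericentral cytochrome P450 on which the placing draws, was at 3633, 5468 and 5942 CPM against 1829, 1834 and 2856. Alb was lower in the pericentral part, at 34440, 39110 and 39630 CPM against 36680, 43060 and 43380. Most other hepatocyte genes listed here went the other way from Alb, as given below.

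In edgeR with the mouse as a block, the pericentral part had a log2 change of 0.30 for mCherry (SE 0.05, n = 3 mice, adjusted p = 1.05e-06), where 10.8% of 8067 features were called. It passed without each mouse in turn (0.26 to 0.36), but not without the mouse block (0.28, adjusted p = 0.997). Malat1 moved with the parts, at 4921, 7831 and 4591 CPM in the pericentral and 8633, 12760 and 8892 in the periportal part. Of 13 measured nuclear RNAs 10 fell in the pericentral part, and all 10 passed. Of 30 ribosomal protein genes 30 rose, and 21 passed. Of 26 secreted hepatocyte genes 21 rose (13 passed) and 5 fell (1 passed), with a median log2 change of 0.12. Of 20 intracellular hepatocyte genes 15 rose (9 passed) and 5 fell (0 passed), with a median of 0.15. In a further fit, chosen after the data had been seen, the 1 in 4 barcodes with the most Malat1 were left out before placing. Malat1 was then at 717 and 721 CPM in mouse 3, 2079 and 1947 in mouse 6, and 1334 and 1329 in mouse 9. mCherry was at 8477 against 8288, 7598 against 7235 and 1971 against 1743 CPM, and the call was lost (log2 change 0.12, SE 0.05, adjusted p = 0.733).

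Genes that went with mCherry from barcode to barcode were sought among 968 features, each in at least 10% of the negative barcodes with at least 500 UMIs in each of mice 3, 6 and 9 (3315, 4698 and 5471 barcodes). The measure was Pearson's r of log values per 10000 UMIs, averaged over the 3 mice. All were weak. The highest were Apoa2 and Apoc1, apolipoproteins of plasma lipoproteins (mean r 0.18 and 0.15), Ttr and Rbp4, which carry thyroid hormone and retinol in plasma (0.17 and 0.15), and Fabp1, the fatty acid binding protein of hepatocytes (0.15). The protease inhibitors Serpina1b, Serpina1c and Serpina1a (0.14, 0.13 and 0.11) and the detoxifying enzymes Mgst1 and Gpx1 (0.14 and 0.12) made up the other 5 of the highest 10. Each of the 10 was above 0 in all 3 mice, with r up to 0.26 in mice 3 and 6 and up to 0.06 in mouse 9. With Alb in place of mCherry, each of the 10 was above 0 as well, at a mean r of 0.06 (Gpx1) to 0.23 (Ttr).

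The lowest were Malat1 (mean r −0.13), mt-Rnr2, the large mitochondrial ribosomal RNA (−0.12), Mlxipl, a glucose-responsive transcription factor (−0.10), and Jun, an immediate early transcription factor (−0.10). Hc, which is complement C5, Srrm2, a splicing factor, C4b, a complement gene, Nlrp6, an innate sensor, Pigr, the receptor that carries IgA into bile, and Gcgr, the glucagon receptor, followed at −0.08 to −0.07. Of these 10, Gcgr (0.0088), Srrm2 (0.0020) and Nlrp6 (1.2e-05) were not below 0 in mouse 9, and Malat1 (−0.0025) and Jun (−8.2e-04) were close to 0 there, so their means rest on mice 3 and 6. In mouse 9, r was −0.08 for mt-Rnr2, and 0 of the 968 features went beyond 0.1 in either direction, against 36 in mouse 3 and 43 in mouse 6. Mouse 9 also had the fewest mCherry UMIs per barcode. The barcodes of a library share its depth range, and log values of sparse counts lower r, so these values are descriptions. Across the 968 features, which are not independent, r in mouse 3 correlated with r in mouse 6 at 0.76, and with r in mouse 9 at 0.41. Most of the lowest 10 were also below 0 with Alb in place of mCherry. Their mean r with Alb was −0.33 (Malat1), −0.32 (Mlxipl), −0.26 (Jun), −0.25 (Srrm2), −0.24 (Nlrp6), −0.18 (Gcgr) and −0.09 (Hc). For C4b it was −7.5e-04, and mt-Rnr2 (0.24) and Pigr (0.14) went the other way.

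**Figure D5:**
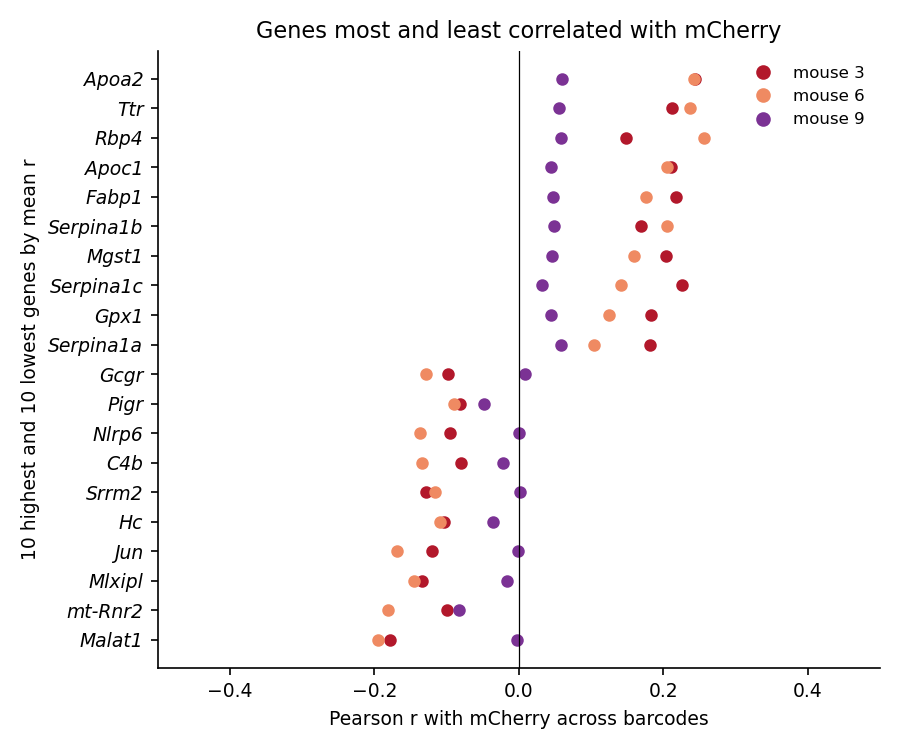
Pearson r with mCherry across barcodes for the 10 genes with the highest and the 10 with the lowest mean r, 1 point per AAVrh.10mCherry liver. Points of mouse 9 lie closer to 0 than those of mice 3 and 6 for each of the 10 highest genes, and no r is beyond 0.26.

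By list, 14 of 26 secreted hepatocyte genes and 15 of 20 intracellular ones had r above 0 in all 3 mice (median of mean r 0.05 and 0.05), beside 467 of all 968 features (median 0.02). Alb, itself on the secreted list, did not go with mCherry. Its mean r was −0.016 (−0.045, 0.040 and −0.043 in mice 3, 6 and 9), which ranked 838th of the 968. Below 0 in all 3 mice were 80 of the 968. Of 7 measured pericentral genes 6 were above 0 in all 3 mice, and of 12 periportal genes 1 was, with 4 below 0 in all 3. Of 8 mitochondrial transcripts 6 were below 0 in all 3 (median −0.04), and of 8 nuclear RNAs 3 were (median −0.07). Ribosomal protein genes, which stand for cytoplasmic RNA of translation, were above 0 in all 3 mice in 22 of 29 (median 0.03). Of 3 AAV entry genes frequent enough to measure, Ctsl, Ctsb and Rpsa, 0 were above 0 in all 3 mice.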

How the data were processed

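Single liver cells of 9 mice, 1 library each and 3 mice per group, were read from deposited UMI count tables, whole numbers per feature and barcode that the authors left unscaled, per the files' values. Replicates are separate mice per the labels. Per the submitters' processing notes the genome build was mm10 and Seurat was used, and the deposited notes name bcl2fastq 2.19. The aligner, the counting tool, the annotation, the mCherry sequence counted and the rule for choosing barcodes are not given in the sources used here. No sequence of the vector is printed.

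The feature, the gene lists and the tests were chosen with earlier results of these data known. Retained barcodes had 200 or more genes and a mitochondrial share of no more than 50%, and doublets were neither called nor removed. Depth was 290531 to 11220147 retained UMIs per mouse. Levels have exact 95% Poisson intervals, shares exact binomial (Clopper-Pearson) limits, and 0 UMIs were set against a floor of 3 UMIs; these cover counting error only. UMIs were summed per mouse, or per mouse and class of barcodes (at least 10 barcodes), and fitted in R 4.3.3 with edgeR 4.0.16 quasi-likelihood tests, TMM scaling and filterByExpr. Sums of whole livers had the group as the only term, and classes within the 3 AAVrh.10mCherry livers had the mouse as a block. Benjamini-Hochberg adjustment ran over all features of a contrast, with a threshold of 0.05. An SE is the log2 change divided by the square root of the F statistic. DESeq2 1.42.0 and limma 3.58.1 were alternatives. Permutation tests, thinning (fixed seed) and correlations used scipy 1.17.1, numpy 2.4.6 and pandas 2.3.3 in Python 3.11.15, with matplotlib 3.10.9 for plots. Named genes are the 10 highest and the 10 lowest by mean r, with Alb and markers as references. The tests were tried on simulated data before use. Alternatives changed the scaling, the filters on counts and barcodes, the tool, the class rules and the mice used.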

Additional observations from a re-analysis of the deposited data

How the results depend on the processing

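No paired analysis was possible between groups because mouse numbers are not shared between them. For mCherry over whole livers the direction held in all 18 alternatives of each contrast (log2 change 8.05 to 17.71 against PBS, 7.74 to 15.59 against AAVrh.10Null and 8.14 to 13.56 against the mean of both), and only limma-voom in the last contrast passed (11.63, adjusted p = 0.0317). Called features numbered 18 against PBS, 71 against AAVrh.10Null and 43 against the mean of both with no filter on low counts, and 2, 3 and 2 by DESeq2. Limma-voom called 0 against AAVrh.10Null and 1 against the mean of both, and there were 0 against AAVrh.10Null with upper quartile factors and with no filter on barcodes. The low end of 7.74 against AAVrh.10Null came from the fit without mice 2, 7 and 8. In that fit mouse 5, a liver with a trace, was the only AAVrh.10Null mouse. Leaving out 1 mouse gave 0 to 1 calls against PBS and 0 to 2 against AAVrh.10Null.

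In marker-positive barcodes the endothelial change was −1.42 without the mouse block (adjusted p = 0.102) and −1.56 to −1.14 without 1 mouse, lost without mouse 3. It was −1.96 with at least 1% marker UMIs and −1.05 with 2 marker UMIs, and the macrophage change was −3.05 (mice 3 and 9 alone) and −1.22. The T-positive change was −1.90 by limma-voom (adjusted p = 0.0526), and the rule of at least 1% marker UMIs could not be fitted for it. With Alb as library size, chosen after the data had been seen, the changes were 0.047, 0.029 and 0.075 in endothelial, macrophage and T-positive barcodes, and with the secreted hepatocyte list −0.068, −0.18 and −4.45e-04; none passed, and the library size itself moves by construction. The pericentral change was 0.28 without the block and 0.12 without the barcodes richest in Malat1. The depth change was −0.16 to −0.013 without 1 mouse, and passed without mouse 9. The level of mouse 6 was 6907 CPM with at most 20% mitochondrial UMIs, 6144 with no filter on barcodes and 5745 with at least 500 genes, and that of mouse 8 was 0 under the first and the last. The spread of mouse 6 was 0.364 thinned to 500 UMIs, and that of mouse 9 was 0.262. The causes were not tested. Of the 10 highest correlated genes 8 remained among them, and of the 10 lowest 5, with barcodes thinned to 1000 UMIs. Small classes (13 to 26 macrophage or T-positive barcodes) and the depth of mouse 7 limit what could be detected.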

Other observations

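Barcodes positive for markers of stellate cells, which store vitamin A beside the sinusoids, held mCherry at 93.3% (47 barcodes), 79.7% (50) and 82.4% (52) of the negative level in mice 3, 6 and 9, with Alb at 91.5%, 73.7% and 88.4%. B cell-positive barcodes numbered 5, 3 and 5 and held mCherry at 64.6%, 68.3% and 55.1%, with Alb at 82.9%, 44.0% and 75.3%. Cholangiocyte-positive barcodes, of the bile duct lining, numbered 3, 7 and 8. In them mCherry was at 58.1%, 32.6% and 61.4% of the negative level and Alb at 62.3%, 39.9% and 124%, so in mouse 9 mCherry per Alb UMI was at 0.496 of the negative ratio, from 26 mCherry UMIs. The B cell and cholangiocyte classes have too few barcodes for a comparison, and the stellate class was not tested.

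Barcodes that ended in an undetermined base carried mCherry at 8056 CPM against 7952 in the other barcodes of mouse 3, at 6364 against 6364 in mouse 6 and at 1781 against 1804 in mouse 9.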
